A study of Mus musculus with 8 samples.

Results

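The genes described here are 10 members of the NRF2 pathway outside the glutathione transferase family, namely Nfe2l2, Keap1, Gclc, Gclm, Txnrd1, Srxn1, G6pdx, Nqo1, Hmox1 and Ephx1. They were taken by symbol from a table of 35638 genes, which held all 10, and all 10 passed the filter of a mean of at least 1 FPKM (fragments scaled to gene length and to the reads of the library). The livers came from mice of a mix of the strains C57/B6 and 129, taken at postnatal day 90. In the 4 KO libraries the floxed Arid1a alleles (Arid1a Fl/Fl) were combined with Alb-cre, a transgene that drives Cre recombinase from the albumin promoter in hepatocytes. The 4 WT libraries carried the same floxed alleles without Cre, so both groups share the loxP sites. Cells in which Alb-cre is not active keep the intact gene, and the labels name neither the floxed exons nor the sex of the mice. ARID1A is a subunit of SWI/SNF, a complex that moves nucleosomes and opens chromatin.

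NRF2, the product of Nfe2l2, is a transcription factor that the adaptor KEAP1 holds in the cytoplasm and presents for degradation. Electrophiles and oxidants modify cysteines of KEAP1, after which NRF2 accumulates, pairs with small MAF proteins and binds antioxidant response elements near genes of glutathione synthesis, thiol reduction, NADPH supply and quinone or heme breakdown. The liver depends on these enzymes to handle reactive intermediates of drugs and bile.

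The core letters of the element, TGACNNNGC, were searched on both strands of RefSeq promoter windows of build GRCm38.p6, each from 250 bases before to 50 bases after a gene's start site. Windows were present for 8 of the 10 genes, and 5 genes held the motif in 5 of 10 windows (50%), against 12.4% of 32851 windows of all genes. The matches are shown because they are the letters by which NRF2 is known to meet DNA. Each is printed on the strand that reads the motif, which is in capitals.
Nfe2l2: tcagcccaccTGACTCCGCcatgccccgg
Gclm: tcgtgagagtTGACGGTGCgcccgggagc
Txnrd1: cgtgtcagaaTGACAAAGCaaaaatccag
Srxn1: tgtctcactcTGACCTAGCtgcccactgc
G6pdx: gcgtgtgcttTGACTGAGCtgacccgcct
The stretches lie at chr2:75704885-75704913 (Nfe2l2, minus strand), chr3:122245413-122245441 (Gclm, minus), chr10:82859104-82859132 (Txnrd1, minus), chr2:152105542-152105570 (Srxn1, minus) and chrX:74428919-74428947 (G6pdx, plus). Their motifs centre 236 bases before the start site of Nfe2l2, 130 before that of Gclm, 88 before 1 of the start sites of Txnrd1, 32 after that of Srxn1 and 53 before that of G6pdx. These matches describe letters only and are no evidence of binding.

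Each library held an estimated 12400000 to 15350000 reads, judged from the spacing of its low values. Markers of hepatocytes were present in every library, with 7 markers summing to 31075 to 43701.5 FPKM in KO and 27572 to 37628 FPKM in WT. Alb alone made up 23165 to 31604 FPKM of these sums in KO and 20104 to 27121 FPKM in WT, and 1 of the 7 markers, the cytochrome P450 gene Cyp3a11, fell to 116 ± 33.1 FPKM in KO, against 317 ± 51.0 FPKM in WT (SD, n = 4 each; limma adjusted p = 0.0217, and 0.0518 to 0.0765 without KO 3, KO 4, WT 1, WT 3 or WT 4). Arid1a itself was at 2.70, 2.86, 3.46 and 2.59 FPKM in KO and at 5.16, 8.38, 3.998 and 4.10 FPKM in WT (exact two-sided permutation p = 0.0286, the smallest that 70 splits allow; limma adjusted p = 0.316). The libraries WT 4 and KO 2 stood apart from their groups in metabolic genes: Cyp4a10, a PPAR-alpha target, reached 317 FPKM in WT 4, with 41.8 to 54.3 FPKM in the other WT libraries, and the fatty acid synthase gene Fasn only 72.4 FPKM in KO 2, with 342 to 517 FPKM in the other KO libraries. Nothing in the labels says that replicates of a group were separate animals, so the spread behind each p-value may be technical. In bulk tissue, fewer cells of a type and less RNA per cell cannot be told apart.

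None of the 10 genes passed the test between KO and WT. By limma on log2(FPKM + 1), 0 of 10 had a Benjamini-Hochberg adjusted p under 0.05, against 86 of 11266 genes tested (0.763%). The median change of the 10 genes was -0.05 on the log2 scale, beside -0.03 for all genes tested. Of the 10 changes 4 were positive and 6 negative, where 5129 and 6137 of the 11266 genes tested were. Hmox1 lay above WT in every KO library and Nqo1 below it. Ephx1, Srxn1 and G6pdx had KO means above WT means with groups that overlapped. The groups of Nfe2l2, Keap1, Gclc, Gclm and Txnrd1 overlapped too, with log2 changes from -0.15 to -0.03. At an unadjusted limma p under 0.05 stood 3 of the 10 (Hmox1, Nqo1 and Ephx1), where 1105 of all genes tested (9.81%) did.

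**Figure D1:**
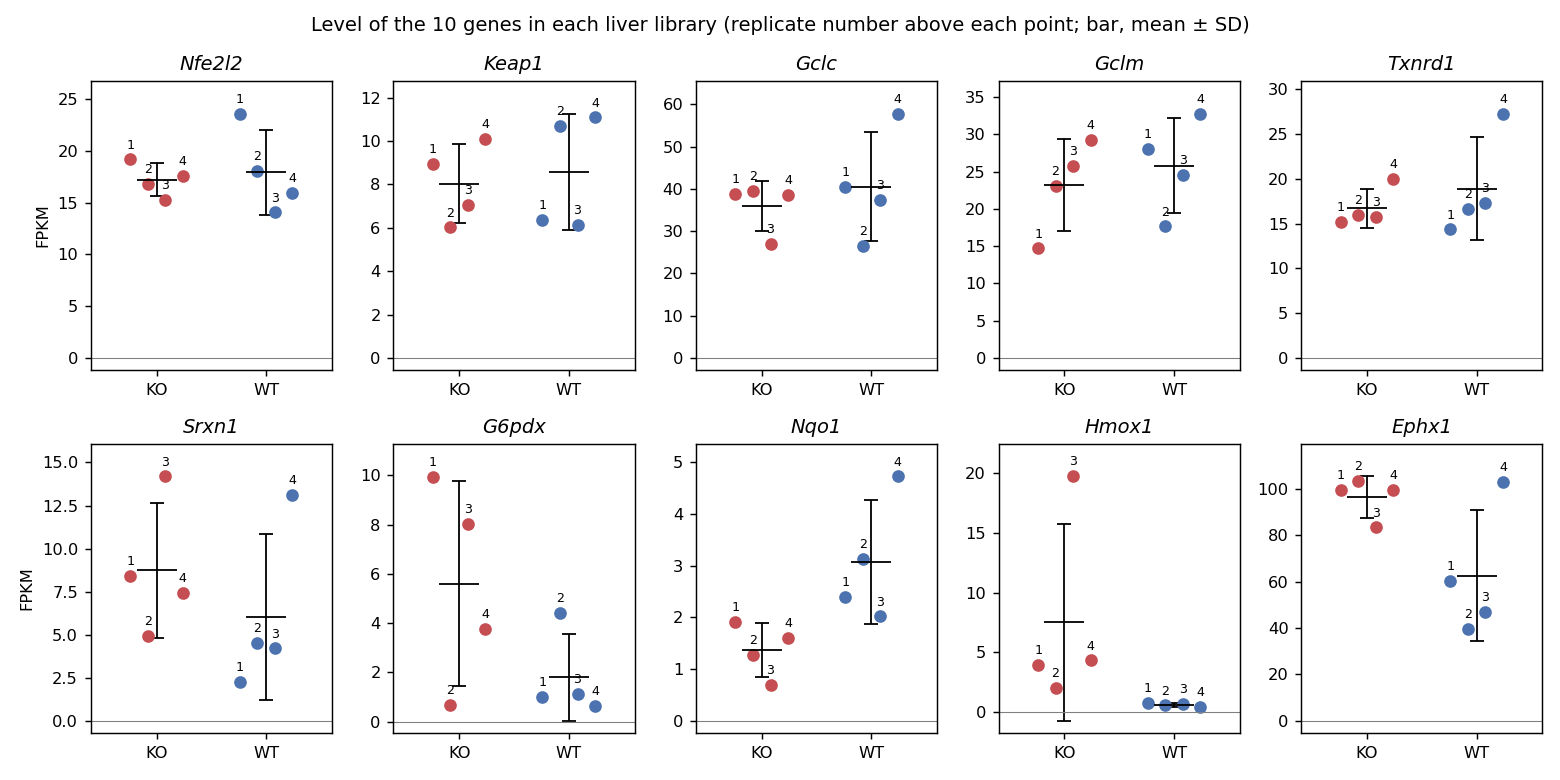
FPKM of each of the 10 genes (vertical axes, linear and including 0, scaled separately) in the 4 KO libraries, left in each panel, and the 4 WT libraries, right. Numbers are replicate numbers and bars are mean ± SD. The groups do not overlap for Hmox1 and Nqo1, and WT 4 is the highest WT point in 7 panels.

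The levels of the regulators themselves overlapped between the groups. Nfe2l2 (ENSMUSG00000015839, GRCm38 chromosome 2, 75675513 to 75704641) was at 19.2, 16.8, 15.3 and 17.6 FPKM in KO 1 to KO 4 and at 23.6, 18.0, 14.0 and 15.95 FPKM in WT 1 to WT 4. The KO values all lay inside the WT range. The log2 change was -0.03 with a 95% interval of -0.46 to 0.39 (limma adjusted p = 0.981). Keap1 (ENSMUSG00000003308, chromosome 9, 21229730 to 21239361) was at 8.96, 6.02, 7.07 and 10.1 FPKM in KO and at 6.35, 10.7, 6.15 and 11.1 FPKM in WT. In both groups some libraries were near 6 FPKM and others near 10, and the change was -0.06 (-0.61 to 0.49, limma adjusted p = 0.975). The ratio of Nfe2l2 to Keap1 ran from 1.74 to 2.79 in KO and from 1.44 to 3.71 in WT. NRF2 is controlled mainly through the stability of its protein, which these RNA values do not measure.

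Glutathione synthesis starts with glutamate-cysteine ligase, whose catalytic subunit is encoded by Gclc and whose modifier subunit is encoded by Gclm. Gclc (ENSMUSG00000032350, chromosome 9, 77754535 to 77794485) was at 38.8, 39.4, 26.9 and 38.6 FPKM in KO and at 40.4, 26.5, 37.5 and 57.8 FPKM in WT. The KO libraries lay within the WT range, with KO 3 apart from the other KO libraries at the lower end. Gclm (ENSMUSG00000028124, chromosome 3, 122245557 to 122270732) was at 14.7, 23.1, 25.8 and 29.3 FPKM in KO and at 28.1, 17.7, 24.6 and 32.8 FPKM in WT, again overlapping. The changes were -0.13 (95% interval -0.69 to 0.42) for Gclc and -0.15 (-0.73 to 0.42) for Gclm, with limma adjusted p = 0.938 and 0.932. The ratio of Gclc to Gclm was 2.64, 1.71, 1.04 and 1.32 in KO and 1.44, 1.502, 1.52 and 1.76 in WT. The WT libraries kept the subunits in nearly one ratio, while the KO ratios were spread wider on both sides of it, from KO 3 to KO 1, a spread that was not tested.

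Thioredoxin reductase 1, encoded by Txnrd1, returns thioredoxin to its reduced form with NADPH, and sulfiredoxin, encoded by Srxn1, repairs overoxidized peroxiredoxins. Txnrd1 (ENSMUSG00000020250, chromosome 10, 82833951 to 82897712) was at 15.1, 15.99, 15.7 and 19.96 FPKM in KO and at 14.3, 16.6, 17.3 and 27.3 FPKM in WT. The libraries were close to each other apart from KO 4 and WT 4, the highest of each group, and the change was -0.14 (95% interval -0.62 to 0.35, limma adjusted p = 0.922). Srxn1 (ENSMUSG00000032802, chromosome 2, 152105516 to 152111376) was at 8.43, 4.93, 14.2 and 7.40 FPKM in KO and at 2.26, 4.499, 4.20 and 13.1 FPKM in WT. All 4 KO libraries lay above WT 1 to WT 3 and all except KO 3 lay below WT 4. The change was 0.61 (-0.37 to 1.59, limma adjusted p = 0.766). It was 0.31 without WT 1 and 0.37 without KO 3 (limma adjusted p = 0.890 and 0.944). Without WT 4 it was 1.02 and the groups no longer overlapped (limma adjusted p = 0.285).

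**Figure D2:**
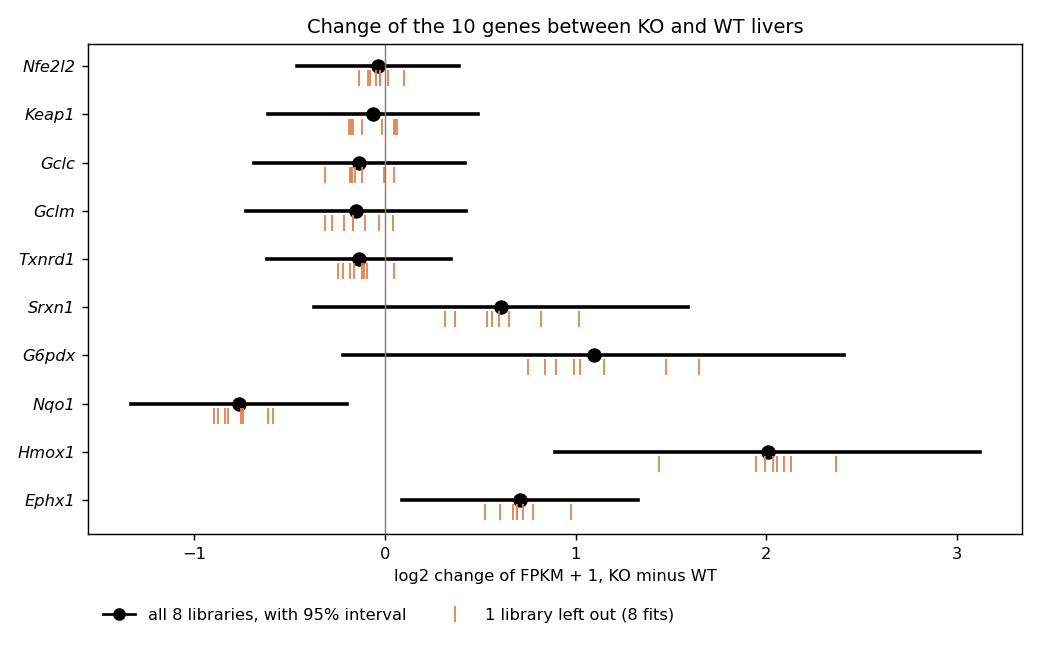
Change of each gene between KO and WT livers (horizontal axis, log2 of FPKM + 1, KO minus WT). Circles and black lines are the estimate from all 8 libraries with its 95% interval, and orange ticks are the 8 fits that leave out 1 library. The intervals of Hmox1, Nqo1 and Ephx1 leave out 0, and those of the other 7 genes include it.

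Nqo1 encodes a quinone reductase that moves 2 electrons at once and is widely used as a readout of NRF2. It had the opposite direction to Hmox1. Nqo1 (ENSMUSG00000003849, chromosome 8, 107388225 to 107403206) was at 1.91, 1.28, 0.692 and 1.603 FPKM in KO and at 2.39, 3.13, 2.02 and 4.73 FPKM in WT. All KO libraries lay under all WT libraries, KO 3 being the lowest and WT 4 the highest, though KO 1 and WT 3 were close. Groups that do not overlap in this direction were found for 3.18% of all genes tested. The means were 1.37 ± 0.519 FPKM in KO and 3.07 ± 1.20 FPKM in WT (SD, n = 4 each), the exact two-sided permutation p was 0.0286, the smallest possible, and the log2 change was -0.76 (95% interval -1.33 to -0.20, limma adjusted p = 0.305). With median ratio scaling of the libraries the groups overlapped. Nqo1 has a single annotated transcript of 1553 bases, so its values stand for about 15 to 41 reads per KO library and 42 to 91 per WT library.

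Glucose-6-phosphate dehydrogenase, encoded by G6pdx, makes NADPH at the entry of the pentose phosphate pathway. G6pdx (ENSMUSG00000031400, chromosome X, 74409483 to 74429194) was at 9.95, 0.697, 8.04 and 3.75 FPKM in KO and at 1.005, 4.43, 1.13 and 0.646 FPKM in WT. KO 1 and KO 3 lay above all WT libraries, KO 4 lay below WT 2, and KO 2 lay with the lowest WT libraries. The change was 1.10 (95% interval -0.22 to 2.41, limma adjusted p = 0.613), and it ran from 0.75 without KO 1 and 0.84 without KO 3 to 1.47 without WT 2 and 1.65 without KO 2 (limma adjusted p = 0.819, 0.857, 0.462 and 0.193). The next NADPH-making enzyme of the pathway, 6-phosphogluconate dehydrogenase (Pgd), was at 22.4, 4.80, 18.3 and 13.9 FPKM in KO and at 14.2, 11.4, 9.33 and 4.63 FPKM in WT. Malic enzyme (Me1), another source of NADPH, was at 49.3, 9.89, 39.3 and 33.5 FPKM in KO and at 54.2, 28.9, 35.9 and 25.4 FPKM in WT. KO 2 was the lowest KO library and WT 4 the lowest WT library for all of G6pdx, Pgd and Me1. The same held for Fasn, at 89.7 FPKM in WT 4 and 157 to 221 FPKM in the other WT libraries. The part of the state of these libraries in the G6pdx values was not tested. The Ikbkg gene overlaps G6pdx on the other strand and was at 19.0, 10.9, 10.5 and 11.8 FPKM in KO and at 7.69, 2.68, 11.8 and 3.74 FPKM in WT. In KO 2, with little G6pdx, Ikbkg was close to its level in KO 3 and KO 4. Whether counting used the strand is not given in the sources used here, so reads of overlapping genes may be mixed. Keap1, Gclm and Txnrd1 also overlap annotated genes on the other strand. Nfe2l2, Gclm, Txnrd1 and Ephx1 overlap annotated genes on their own strand, where counting by strand would not part the reads.

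**Figure D3:**
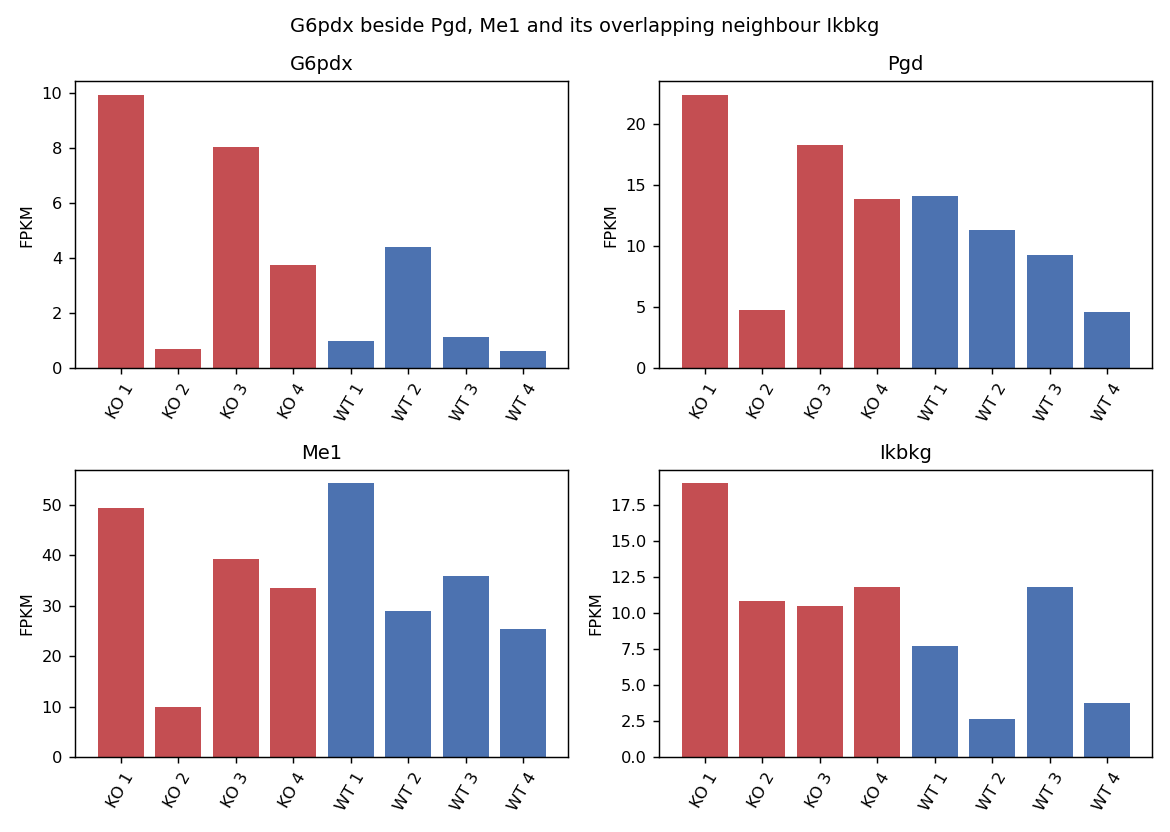
FPKM (vertical axes, linear from 0) of G6pdx, Pgd, Me1 and Ikbkg in each KO library (red, left) and WT library (blue, right). KO 2 has the lowest bar among KO libraries for G6pdx, Pgd and Me1, at 0.697, 4.80 and 9.89 FPKM. For Ikbkg the lowest KO bar is KO 3, at 10.5 FPKM, with KO 2 at 10.9 FPKM.

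Heme oxygenase 1, encoded by Hmox1, opens the heme ring to biliverdin, iron and carbon monoxide. It is induced in stressed hepatocytes and is also strongly expressed by Kupffer cells, the macrophages of the liver that clear aged red cells. Hmox1 (ENSMUSG00000005413, chromosome 8, 75093621 to 75100589) was at 3.90, 2.03, 19.8 and 4.31 FPKM in KO and at 0.748, 0.543, 0.681 and 0.390 FPKM in WT. Every KO library lay above every WT library, and KO 3 stood far above the other KO libraries. Groups that do not overlap in this direction were found for 3.05% of all genes tested. The means were 7.51 ± 8.24 FPKM in KO and 0.591 ± 0.159 FPKM in WT (SD, n = 4 each), a ratio of 12.7 that was 5.78 without KO 3. Hmox1 thus passed the filter of 1 FPKM only through KO. The exact two-sided permutation p was 0.0286, the smallest possible. On the log2 scale the change was 2.01 (95% interval 0.89 to 3.12, limma adjusted p = 0.136 over all genes). Without KO 3 it was 1.44 (limma adjusted p = 0.0655). The size depended on the pseudocount, with 2.95 when 0.1 FPKM was added (limma adjusted p = 0.0708) and 0.97 when 5 FPKM was added (limma adjusted p = 0.340). With the length of its merged exons of 1751 bases these values stand for about 55 to 475 reads per KO library and 8 to 17 per WT library.

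The sum of macrophage markers, like Hmox1, lay above all WT libraries in every KO library. Marco taken singly overlapped, at 0.331 FPKM in KO 2 and 0.346 FPKM in WT 3. The 12 markers of macrophages and Kupffer cells summed to 95.8, 23.4, 168 and 135 FPKM in KO 1 to KO 4 and to 7.25, 9.07, 13.7 and 16.6 FPKM in WT 1 to WT 4. KO 3 was the highest library and KO 2 the lowest KO library for both, while KO 4 was close to KO 3 in the markers and close to KO 1 in Hmox1. Among the WT libraries WT 4 had the highest marker sum and the lowest Hmox1, and WT 1 the lowest sum and the highest Hmox1. All 11 tested markers had a positive change (median 2.17) and an unadjusted limma p under 0.05, and 0 passed the threshold over all genes. Of all genes tested, 9.81% had such a p. Adgre1, Cd68, Csf1r, Vsig4 and Marco had WT means under 1 FPKM and passed the filter only through KO. Their positive direction was thus partly fixed by the filter. Clec4f, which marks Kupffer cells, was at 21.6, 3.79, 31.4 and 17.0 FPKM in KO and at 2.26, 1.85, 3.27 and 2.92 FPKM in WT. Timd4, a marker of resident Kupffer cells, was listed at 0 in WT 1 and WT 2 and Marco in WT 1. Endothelial markers summed to 4.73 to 14.7 FPKM in KO and 1.64 to 4.14 FPKM in WT, and stellate cell markers to 9.14 to 22.4 FPKM in KO and 1.93 to 6.09 FPKM in WT. The part of these cells in the Hmox1 values was not tested.

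**Figure D4:**
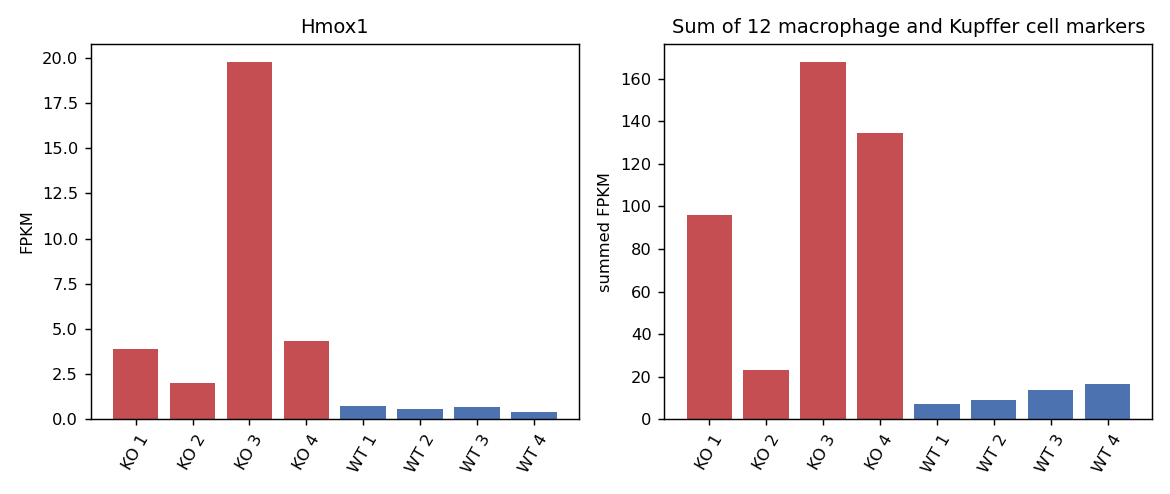
FPKM of Hmox1 (left panel) and summed FPKM of 12 macrophage and Kupffer cell markers (right panel), vertical axes linear from 0, in each KO library (red, left) and WT library (blue, right). KO 3 is highest in both panels, at 19.8 and 168 FPKM, and every KO bar is above every WT bar.

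Microsomal epoxide hydrolase, encoded by Ephx1, opens epoxides formed by cytochromes P450. Ephx1 (ENSMUSG00000038776, chromosome 1, 180976210 to 181020904) was the most abundant of the 10 genes. It was at 99.4, 103.5, 83.4 and 99.5 FPKM in KO and at 60.2, 39.7, 47.1 and 103.1 FPKM in WT. The KO libraries were close to each other and above WT 1 to WT 3, and WT 4 alone was as high as they were. The means were 96.5 ± 8.91 FPKM in KO and 62.5 ± 28.3 FPKM in WT (SD, n = 4 each), with a change of 0.71 (95% interval 0.09 to 1.33, limma adjusted p = 0.415). Without WT 4 the change was 0.98 (limma adjusted p = 0.0758), and the groups did not overlap. The SD of Ephx1 was 9.24% of its mean among KO libraries and 45.3% among WT libraries, or 21.2% without WT 4.

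WT 4 was the highest WT library for 7 of the 10 genes, as it was for 44.7% of all genes tested. These were Keap1, Gclc, Gclm, Txnrd1, Srxn1, Nqo1 and Ephx1, whereas Hmox1 and G6pdx had their lowest WT values there. Without WT 4, the genes whose groups do not overlap numbered 4 (Srxn1, Hmox1 and Ephx1 above, Nqo1 below), where 5.97% of all genes tested then lay above and 4.85% below. The changes of Keap1, Gclc and Txnrd1, all slightly negative with 8 libraries, then became 0.06, 0.05 and 0.05. KO 3 held the highest KO values of Hmox1 and Srxn1 and the lowest of Gclc, Nqo1, Ephx1 and Nfe2l2, so that the members did not move together within the KO group either.

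Wider lists of the pathway gave few calls outside the exporters and transferases. Among 21 tested genes that regulate NRF2 or bind DNA with or against it, 0 passed the threshold (median change -0.06), and 0 had an unadjusted limma p under 0.05. Rbx1, a subunit of the ubiquitin ligase that KEAP1 serves, had the smallest p of them, at 6.37 ± 1.63 FPKM in KO and 8.32 ± 0.822 FPKM in WT (limma adjusted p = 0.619). Of 11 tested genes of glutathione synthesis and recycling 0 passed (median -0.15), with Oplah, the 5-oxoprolinase gene, at 12.3 ± 2.93 FPKM in KO and 16.5 ± 3.28 FPKM in WT (limma adjusted p = 0.608). Slc7a11, the cystine transporter gene and a known NRF2 target, was at most 0.0151 FPKM in every library, and Gpx2 was listed at 0 throughout. Of 17 thioredoxin and antioxidant genes 0 passed (median -0.10). Sesn2, the sestrin 2 gene, had the smallest p in that list, at 2.41 ± 0.620 FPKM in KO and 1.55 ± 0.370 FPKM in WT (SD, n = 4 each; limma adjusted p = 0.548). Of 8 NADPH supply genes 0 passed (median -0.20), Pgls, the phosphogluconolactonase gene, being at 14.3 ± 1.94 FPKM in KO and 9.80 ± 5.87 FPKM in WT (limma adjusted p = 0.654). No tested gene of these 4 lists had an unadjusted limma p under 0.05. Chac1 (means 0.0435 FPKM in KO and 0.407 FPKM in WT), Gpx3 (0.381 and 0.0433 FPKM) and Sod3 (1.39 and 0.289 FPKM) were under the filter and not tested. Their groups did not overlap, with Chac1 lower and Gpx3 and Sod3 higher in KO. These 3 genes were picked after their values were seen. The 4 lists had 23, 16, 18 and 9 genes in the table, of which 21, 11, 17 and 8 were tested. Among tested genes 6.23% had groups that did not overlap, and the share among genes under the filter was not computed.

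Of 10 tested heme and iron genes, 9 had a change above 0 (median 0.41), where 5129 of all 11266 genes tested did. Without Fth1, whose values are given below, it was 8 of 9 (median 0.34). By limma 0 of the 10 heme and iron genes passed the threshold. An unadjusted limma p under 0.05 was found for 3 of them, and for 9.81% of all genes tested. Hpx encodes hemopexin, the heme-binding protein that hepatocytes secrete. It was at 1003, 1300.4, 1564 and 1917 FPKM in KO and at 783, 638, 777 and 936 FPKM in WT, with no overlap (log2 change 0.86, limma adjusted p = 0.165). Slc40a1, the iron exporter ferroportin of macrophages and hepatocytes, was at 20.8, 24.96, 41.0 and 42.1 FPKM in KO and at 21.6, 3.78, 19.4 and 12.3 FPKM in WT (limma adjusted p = 0.375). Ftl1, the ferritin light chain gene, was at 1064 ± 151 FPKM in KO and 767 ± 151 FPKM in WT (SD, n = 4 each; limma adjusted p = 0.432). The sum of the macrophage markers given above was higher in every KO library than in every WT library. The part of macrophages in these values was not tested. Fth1, the ferritin heavy chain gene that nearly every cell uses, was listed at 0 in 6 libraries, at 0.00517 FPKM in KO 2 and at 368 FPKM in KO 3, so a gene listed at 0 in this table is not shown to be silent. None of the 10 genes was listed at 0 in any library.

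Of 13 tested genes of quinone, carbonyl and epoxide metabolism and conjugate export, 2 rose and 1 fell (median -0.14). Of all genes tested, 0.408% rose and 0.355% fell past the same threshold. An unadjusted limma p under 0.05 was found for 5 of the 13, and for 9.81% of all genes tested. Abcc3, an exporter of conjugates and bile acids, fell to 11.9, 3.87, 5.34 and 3.48 FPKM in KO, against 42.1, 36.6, 31.8 and 58.6 FPKM in WT (log2 change -2.70, limma adjusted p = 0.00817). Abcc4, an exporter of the same family, rose to 2.84, 2.24, 2.96 and 1.97 FPKM in KO, against 0.236, 0.928, 0.125 and 0.400 FPKM in WT (limma adjusted p = 0.0257). Akr1b7, an aldo-keto reductase gene, rose to 5.40, 3.84, 2.54 and 2.18 FPKM in KO, against 0.793, 0.489 and 0.376 FPKM in WT 1, WT 2 and WT 4 and a listing at 0 in WT 3 (limma adjusted p = 0.0297). The calls of Abcc4 and Akr1b7 were lost when single libraries were omitted (limma adjusted p reached 0.0901 and 0.0855), and Akr1b7 has close copies that can share reads. Abcc4 and Akr1b7 passed the filter only through KO, with WT means of 0.422 and 0.414 FPKM. Of 18 tested glutathione transferase genes 4 rose and 0 fell (Gsta1, Gsta2, Gstm3 and Gsta4, median 0.21), beside 0 of the 10 genes described here. Of all genes tested, 0.408% rose and 0.355% fell. An unadjusted limma p under 0.05 was found for 8 of the 18, and for 9.81% of all genes tested. Gsta1 also passed the filter only through KO, with a WT mean of 0.791 FPKM, so its direction was partly fixed by the filter. Gstm3 lost its call without WT 1 (limma adjusted p = 0.0524), and Gsta4 lost it without KO 3, KO 4, WT 1 or WT 3 (limma adjusted p up to 0.0828). The difference between these counts was not tested.

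**Figure D5:**
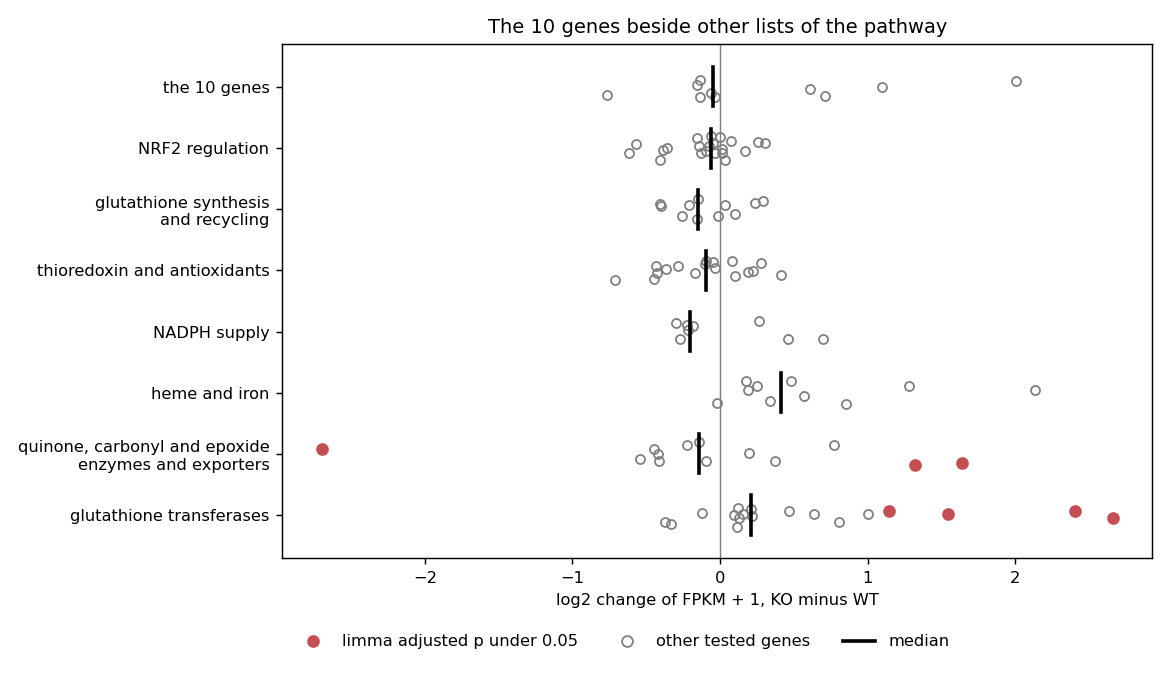
Change between KO and WT livers (horizontal axis, log2 of FPKM + 1, KO minus WT) of the 10 genes and of the tested genes of 7 other lists, 1 point per gene with random vertical spread. Red points had a limma adjusted p under 0.05, and black bars are medians. The 10 genes hold no red point, the exporter list holds 3 and the glutathione transferases hold 4.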

How the data were processed

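RNA sequencing of 8 liver samples, 4 KO and 4 WT, was analysed from 1 table of FPKM values that the authors deposited. Trizol and a Qiagen miRNeasy kit were used for the RNA and Nugen chemistry for the libraries, per the labels' protocols. The submitters' processing notes name TopHat, edgeR and mm10, and which program made the FPKM values, on which annotation and with or without strand, is not given in the sources used here. Because the unit is relative to the whole library, abundant genes press on all others, and the top 10 genes held 40.9 to 50.4% of summed FPKM.

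Columns were matched to samples by name, and 0 columns were left unused. Deposited FPKM were turned into log2(FPKM + 1), with no other scaling, for 11266 genes that averaged at least 1 FPKM over all libraries. A fold change on this scale understates the change of low genes. The test of KO against WT was limma 3.58.1 run in R 4.3.3 (intensity trend, two-sided, Benjamini-Hochberg over all genes tested, threshold 0.05). For single values, an exact permutation test (two-sided) used all 70 splits. On simulated data for this comparison of 11266 genes, 37 of 100 genes with a log2 change of 1 were recovered and 85 of 100 with a change of 2, and 3 of 125 calls were false. Depth was estimated from the spacing of low values in 12059 genes that have a single transcript of at least 400 bases in GENCODE M21 (GRCm38, the build mm10). Of low values 57.6 to 61.6% lay within 0.1 of a whole read, against 20% by chance, so no reads were rebuilt and no count test was run. Of the gene IDs 99.4% matched that annotation. Plots used Python 3.11.15 with matplotlib 3.10.9.

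The members and lists were chosen with earlier results of these data known. Named genes were the 10 members, Arid1a, and in each list up to 4 genes past the threshold or else the gene with the smallest p. Cyp4a10, Fasn, Alb, Cyp3a11, Clec4f, Timd4, Marco, Gpx2, Slc7a11, Slc40a1, Ftl1, Fth1, Pgd, Me1 and Ikbkg fall outside this rule and were chosen after their values were seen. The same holds for Adgre1, Cd68, Csf1r, Vsig4, Chac1, Gpx3 and Sod3. Alternatives were other pseudocounts (0.1 and 5 FPKM), other filters (none and 5 FPKM), 3 scalings, limma untrended or with array weights, a replicate block, and omission of each library or of WT 4 with KO 2.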

Additional observations from a re-analysis of the deposited data

Results flagged for a closer look

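Within groups of 4 libraries, 3 values lay farther from the others than Dixon's 95% critical value for 4 samples allows, among 20 groups of 10 genes. Chance alone marks about 1 in 20 groups (a share of 0.05). Hmox1 in KO 3, at 19.8 FPKM, lay above the other KO libraries by 0.871 of the range of its group. Gclc in KO 3, at 26.9 FPKM, lay below the other KO libraries by 0.938 of the range. G6pdx in WT 2, at 4.43 FPKM, lay above the other WT libraries by 0.871 of the range.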

How the results depend on the processing

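The count of 0 of the 10 genes past the threshold held under all 19 alternatives, and the directions of Srxn1, G6pdx, Nqo1, Hmox1 and Ephx1 held wherever they were fitted. The smallest limma adjusted p was 0.0607, for Hmox1 without KO 2. With a pseudocount of 0.1 and 5 FPKM the change was -1.12 and -0.33 for Nqo1, 1.44 and 0.58 for G6pdx, and 0.72 and 0.37 for Srxn1. The signs of the small changes did not hold. Nfe2l2 was at 0.030 with quantile normalization, and Keap1 at 0.18, Gclc at 0.0015, Txnrd1 at 0.065 and Me1 at 0.067 without WT 4 and KO 2. When 1 library was left out, the ranges were -0.14 to 0.099 for Nfe2l2, -0.19 to 0.065 for Keap1, -0.31 to 0.050 for Gclc, -0.31 to 0.042 for Gclm, -0.25 to 0.047 for Txnrd1 and -0.52 to 0.21 for Me1.

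Members with an unadjusted p under 0.05 numbered 1 with a minimum of 5 FPKM, which leaves out G6pdx, Nqo1 and Hmox1, and 2 to 4 when 1 library was left out. The share of all genes with such a p was computed only for the main fit. Members without overlap numbered 1 with median ratio scaling (7.1% of all genes tested), 4 without WT 4 and KO 2 (15.4%), and 2 to 4 when 1 library was left out (8.41 to 10.8%), beside 2 with all libraries (6.23%). Of all genes, 27 rose with a pseudocount of 5 FPKM, 14 rose and 13 fell with a minimum of 5 FPKM, 26 fell without a filter, and 71 rose without WT 4 and KO 2. When 1 library was left out, 20 to 90 rose and 14 to 44 fell. The exporter list had 1 call with a pseudocount of 0.1 FPKM, without a filter and without WT 4 and KO 2, 1 with a minimum of 5 FPKM, and 1 to 2 when 1 library was left out; the transferases had 2 to 4. The cause was not tested, except that stricter filters and fewer libraries test fewer genes or samples.

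Same-numbered KO and WT libraries shared no label beyond the number, and their deviations correlated at 0.10, -0.07, 0.02 and 0.25. The value of number 4 was the highest of any KO and WT pair. KO 4 was the highest KO library for 45.5% of all genes tested, and WT 4 the highest WT library for 44.7%. Whether the numbers mark pairs or a batch was not tested. With the replicate block 16 genes rose and 8 fell, the exporter list had 1 call and the transferases 2. Abcc3, Abcc4, Gstm3 and Gsta4 then had a limma adjusted p of 0.0559, 0.118, 0.0756 and 0.108. Depth limits Hmox1 and Nqo1, which rest on few reads in some libraries.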
